A study of Mus musculus with 8 samples.

Results

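The sodium-potassium pump (Na,K-ATPase) subunit genes Atp1b1, Atp1b2, Atp1b3 and Fxyd5 were examined in mouse leukaemia-model cells, as 4 of the 19938 genes that had a probe set with 1 gene symbol. They were chosen by the measured difference between cultures labelled Runx1Cbfb-KO and Control cultures, in which Atp1b1 stood among the genes with the largest falls, together with its family, so the values from that comparison are given as a description with no test. The brightest probe set stood for each gene, and 3 of the 4 genes lay at or above the median level of all genes, 6.70 on the log2 scale, while Atp1b2 lay below it.

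The pump exports sodium and imports potassium at the expense of ATP and so maintains the ion gradients of nearly every animal cell. Its catalytic alpha subunit carries the ions and hydrolyses ATP. The beta subunit, a glycoprotein with a single membrane span, is needed for the alpha subunit to fold and reach the plasma membrane. Small FXYD proteins bind the complex and modulate its transport. Beta subunits are also known for roles in adhesion between cells.

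Every culture descended from c-Kit(+) bone marrow cells of Runx1/Cbfb double floxed mice that had been transduced with MLL-AF9, a leukaemia fusion gene, and with CreERT2, whose Cre activity needs 4-hydroxytamoxifen (4OHT). Cells had been replated under puromycin and were kept in M3434, a methylcellulose medium with cytokines. The Runx1Cbfb-KO cultures received 1 µM 4OHT and the Control cultures received ethanol (EtOH), each for 24 h. There were 4 arrays per condition, from 2 clones with 2 biological replicates each. A set is the pair of cultures of 1 clone and 1 replicate number, which gives 4 sets. The Control cultures carried the same floxed alleles, MLL-AF9 and CreERT2, and no culture had 4OHT without floxed alleles, so an effect of 4OHT or of active Cre and an effect of the deletion cannot be told apart. The promoter that drives CreERT2 is not given in the sources used here. The labels call replicates biological without saying how they were separated, so p-values measure the spread between these cultures only.

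Median log2 levels of the arrays ran from 6.26 to 6.39, and arrays correlated at 0.994 to 0.999 within a clone and at 0.981 to 0.991 between clones. Of the targeted genes, Runx1 was higher, not lower, on the KO-labelled arrays in all 4 sets, by a mean log2 difference of 0.52 ± 0.03 (SD, n = 4 sets). Cbfb differed by -0.18 ± 0.08 (SD, n = 4 sets). A whole-transcript probe set can lie outside the exons targeted for deletion, so neither value tests the deletion, and the cultures are called KO-labelled below. Of 13 marker genes of myeloid progenitors, all were measured and 12 lay at or above the median level of all genes. Of the marker genes of other cells, 0 of 5 erythroid, 1 of 4 megakaryocyte, 1 of 6 lymphoid, 1 of 7 epithelial and 3 of 6 stromal genes did.

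Atp1b1 encodes the beta 1 subunit, the widespread isoform that is abundant in kidney and other epithelia. The gene lies on chromosome 1 at 164437099 to 164458355, on the minus strand (GRCm38.p6), and was read by probe set 10359689. The targeted genes encode a DNA-binding factor and its partner, which together bind the letters TGTGGT or TGCGGT. The 250 bases upstream of the RefSeq start of Atp1b1 and of its sister gene Atp1b3 are therefore shown. Any match to either motif on either strand is in capitals. The sequences are from RefSeq, build GRCm38.p6, in the windows chr1:164458356-164458605 and chr9:96364432-96364681, both on the minus strand and written 5′ to 3′.
Atp1b1: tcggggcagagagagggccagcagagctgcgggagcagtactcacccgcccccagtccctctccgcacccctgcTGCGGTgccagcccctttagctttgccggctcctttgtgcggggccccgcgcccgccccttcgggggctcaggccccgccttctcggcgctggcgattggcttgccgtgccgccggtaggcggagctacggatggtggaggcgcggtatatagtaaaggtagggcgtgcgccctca
Atp1b3: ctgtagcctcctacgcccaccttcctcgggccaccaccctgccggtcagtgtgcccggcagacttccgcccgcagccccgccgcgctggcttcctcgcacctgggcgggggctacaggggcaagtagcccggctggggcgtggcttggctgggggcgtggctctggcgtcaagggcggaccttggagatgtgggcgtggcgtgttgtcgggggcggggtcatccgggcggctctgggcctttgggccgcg
The Atp1b1 window held 1 match to TGCGGT, on the strand shown, beginning 176 bases upstream of the start, and 0 matches to TGTGGT. This Atp1b3 window, a second Atp1b3 window and the Fxyd5 window held none of either. In windows of the same length, 5.10% of 32851 promoters in the table held TGCGGT, 14.0% held TGTGGT and 18.6% held at least 1 of them. A match is a run of letters, not a measured binding site. Of the 4 genes, 3 had an entry in the promoter table.

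On the KO-labelled arrays, the Atp1b1 log2 level was 7.73 and 6.92 in the 2 replicates of clone 2 and 9.38 and 9.13 in those of clone 1. On the Control arrays it was 8.83 and 8.85 in clone 2 and 10.04 and 10.12 in clone 1. Each KO-labelled culture lay below the Control culture of its own set. Across clones the conditions overlapped, because both KO-labelled cultures of clone 1 lay above both Control cultures of clone 2.

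The KO-labelled minus Control difference of Atp1b1 was -1.10 and -1.93 in the sets of clone 2 and -0.66 and -0.99 in those of clone 1, on the log2 scale. Its mean was -1.17 ± 0.54 (SD, n = 4 sets), which is 2.25-fold lower on the KO-labelled arrays. The mean level was 8.29 ± 1.17 on KO-labelled arrays and 9.46 ± 0.72 on Control arrays (SD, n = 4 each). Within a clone, the set of replicate 2 had the larger difference in both clones. Clone 2 averaged 2.85-fold lower and clone 1 averaged 1.77-fold lower. Among all genes, Atp1b1 had the third lowest mean difference. In a culture, fewer cells that express the gene and less of its RNA per cell cannot be told apart.

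**Figure D1:**
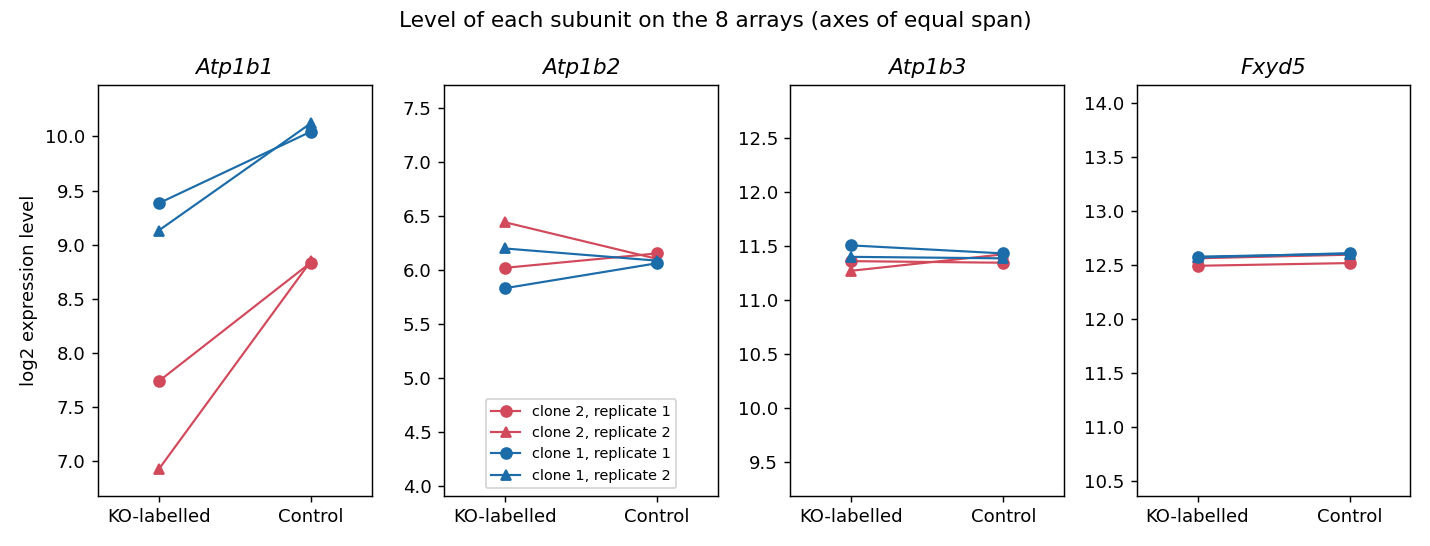
Log2 expression level (y axis) of each subunit gene on the 4 KO-labelled and 4 Control arrays (x axis); a line joins the cultures of a set, colours mark the clone and symbols the replicate, and the y axes have equal span. Atp1b1 lines all run lower on the KO-labelled side, between 6.92 and 9.38 against 8.83 to 10.12 in Control, while those of Atp1b3 and Fxyd5 are nearly flat.

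The order of the 4 combinations of clone and condition for Atp1b1 was Control in clone 1 at 10.08 ± 0.05, KO-labelled in clone 1 at 9.26 ± 0.18, Control in clone 2 at 8.84 ± 0.01 and KO-labelled in clone 2 at 7.33 ± 0.58 (SD, n = 2 each). The replicates of neighbouring combinations did not overlap at any step. The narrowest gap, 0.28, lay between KO-labelled cultures of clone 1 and Control cultures of clone 2. The widest gap, 1.10, lay between KO-labelled and Control cultures of clone 2.

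Atp1b3 encodes the beta 3 subunit, known on leukocytes as the surface antigen CD298. It lies on chromosome 9 at 96332655 to 96364431 and was read by probe set 10595793. Its log2 level was 11.36 and 11.27 on KO-labelled arrays of clone 2 and 11.51 and 11.40 on those of clone 1, against 11.35 and 11.42 on Control arrays of clone 2 and 11.43 and 11.39 on those of clone 1. The conditions overlapped, and the means were 11.38 ± 0.10 on KO-labelled and 11.40 ± 0.04 on Control arrays (SD, n = 4 each).

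The set differences of Atp1b3 were 0.01 and -0.15 in clone 2 and 0.07 and 0.01 in clone 1, with a mean of -0.01 ± 0.10 (SD, n = 4 sets). The set of clone 2, replicate 2 was the lowest of the 4 and the only one below 0. Without it the mean was 0.03. A second probe set of Atp1b3, 10598994, gave a mean of -0.01 ± 0.12 and the same sign in every set, with 0.06 and -0.19 in clone 2 and 0.05 and 0.03 in clone 1. The 9969 genes at or above the median level had median differences of 0.02 and -0.06 in clone 2 and 0.05 and -0.002 in clone 1. Their lowest set was also that of clone 2, replicate 2. The part of that shift in the Atp1b3 values was not tested. All neighbouring combinations of clone and condition overlapped for Atp1b3, from KO-labelled in clone 1 at 11.45 ± 0.07 to KO-labelled in clone 2 at 11.32 ± 0.06 (SD, n = 2 each).

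Atp1b2 encodes the beta 2 subunit, known in the nervous system as the adhesion molecule on glia. It lies on chromosome 11 at 69599728 to 69605978 and was read by probe set 10387505. Its log2 level was 6.02 and 6.44 on KO-labelled arrays of clone 2 and 5.83 and 6.20 on those of clone 1, against 6.16 and 6.10 on Control arrays of clone 2 and 6.06 and 6.09 on those of clone 1. The 4 Control arrays lay within the range of the KO-labelled arrays, which were more spread, with an SD of 0.26 on KO-labelled and 0.04 on Control arrays (n = 4 each).

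The set differences of Atp1b2 were -0.13 in clone 2 and -0.23 in clone 1 for replicate 1, and 0.34 in clone 2 and 0.11 in clone 1 for replicate 2. Their mean was 0.02 ± 0.26 (SD, n = 4 sets). The sign followed the replicate number and not the clone, and the mean was -0.08 without the set of clone 2, replicate 2. The 9969 genes below the median level had median differences of the same sign in each set, at -0.07 in clone 2 and -0.05 in clone 1 for replicate 1, and 0.10 in clone 2 and 0.03 in clone 1 for replicate 2. The part of that shift in the Atp1b2 values was not tested. Its combinations ran from KO-labelled in clone 2 at 6.23 ± 0.30 to KO-labelled in clone 1 at 6.02 ± 0.26 (SD, n = 2 each), and both overlapped with the Control cultures next to them.

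Fxyd5 encodes dysadherin, an FXYD protein that binds the pump and is known for its effects on cell adhesion. It lies on chromosome 7 at 31032723 to 31042331 and was read by probe set 10562192. Its log2 level was 12.49 and 12.56 on KO-labelled arrays of clone 2 and 12.57 and 12.58 on those of clone 1, against 12.52 and 12.60 on Control arrays of clone 2 and 12.61 and 12.60 on those of clone 1. The conditions overlapped, at 12.55 ± 0.04 on KO-labelled and 12.58 ± 0.04 on Control arrays (SD, n = 4 each).

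The set differences of Fxyd5 lay between -0.04 and -0.03 in all 4 sets, with a mean of -0.03 ± 0.01 (SD, n = 4 sets), or 1.02-fold lower on the KO-labelled arrays. The spread between sets was thus small, and so was the difference. With each array centred on its median the mean was -0.05. In the order of its combinations, KO-labelled in clone 1 (12.57 ± 0.006) did not overlap with Control in clone 1 (12.61 ± 0.005), and the lower neighbours overlapped (SD, n = 2 each).

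Over the 4 genes, 2 were lower on the KO-labelled array in all 4 sets, Atp1b1 and Fxyd5, while 6.51% of all genes were. In 0 of the 4 genes did the KO-labelled and Control arrays separate without overlap, as they did in 1.17% of all genes. In the limma fit across all genes with the set as a block, 0.953% of the genes had an adjusted p of at most 0.05, with 0.481% higher and 0.471% lower, and 1 of the 4 subunit genes, Atp1b1, was among the lower ones. The genes were chosen with that fit known, so the count describes the choice. That fit called 190 genes, against 23 with clone as the only covariate, 0 without any pairing (317 at an unadjusted p under 0.05), and 98 without the set of clone 1, replicate 2, 110 without clone 2, replicate 1 and 418 without clone 2, replicate 2.

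**Figure D2:**
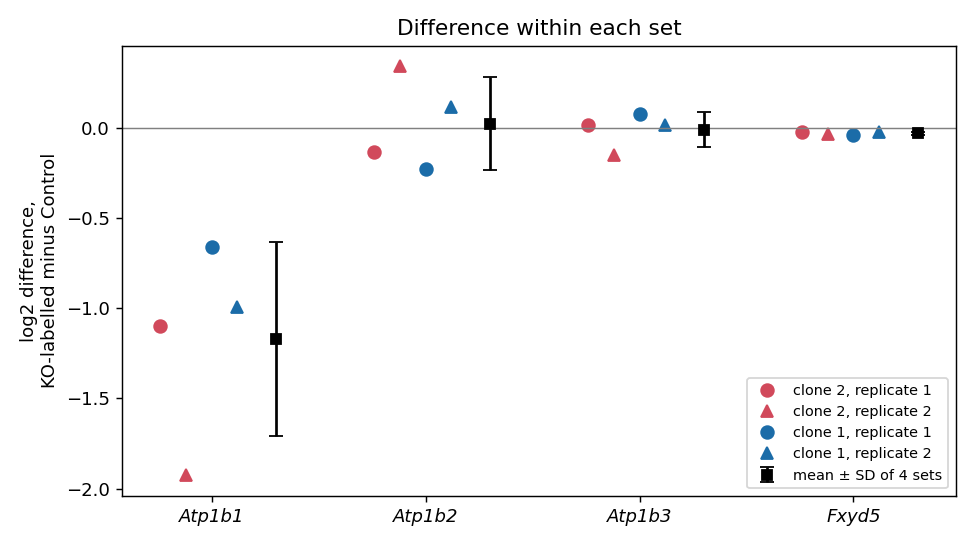
KO-labelled minus Control log2 difference (y axis) within each of the 4 sets, per gene (x axis), with the mean and SD of the 4 sets as a black square and bar. The Atp1b1 sets lie between -1.93 and -0.66, those of Atp1b2 between -0.23 and 0.34, and those of Fxyd5 within 0.02 of each other.

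The SD over all 8 arrays summarises how much each gene varied, whatever the cause. It was 1.09 for Atp1b1, 0.17 for Atp1b2, 0.07 for Atp1b3 and 0.04 for Fxyd5, on the log2 scale. The median over all genes was 0.12. Of all genes, 99.6% had a smaller SD than Atp1b1 and 2.44% a smaller one than Fxyd5.

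The clones were compared separately in each condition, a comparison that had no part in choosing the genes. Atp1b1 was lower in clone 2 in both conditions, by more than the spread between replicates. Among KO-labelled arrays the clone 2 minus clone 1 log2 difference was -1.93 ± 0.21 (SE), 3.81-fold lower in clone 2 (limma adjusted p = 0.00035; 5.11e-05 to 0.0123 over the alternatives tried). Among Control arrays it was -1.24 ± 0.21 (SE), 2.37-fold lower in clone 2 (limma adjusted p = 0.0067; 9.86e-05 to 0.0732 over the alternatives). Both replicates of clone 2 lay below both of clone 1 in each condition. The Control call ended without the set of clone 1, replicate 1 (log2 difference -1.28, limma adjusted p = 0.0563), without that of clone 1, replicate 2 (-1.20, 0.0653) and with all probe sets tested (-1.24, 0.0732). Without the set of clone 2, replicate 2 the difference among KO-labelled arrays was -1.52, and without that of clone 2, replicate 1 it was -2.34.

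Markers also differed between the clones, in both conditions. Of the 13 myeloid progenitor markers, 4 passed among KO-labelled and 4 among Control arrays. Cd34, a surface sialomucin of stem and progenitor cells, had a clone 2 minus clone 1 log2 difference of 5.66 among KO-labelled and 5.48 among Control arrays. The other 3 were Csf1r (0.95 among KO-labelled and 0.70 among Control arrays), Fcgr3 (-0.99 and -1.04) and Ptprc (-0.47 and -0.40). In the lymphoid list Cd79b, a B cell receptor component, differed by 3.18 among KO-labelled and 2.99 among Control arrays, and in the megakaryocyte list Gp9 differed by 1.04 and 0.70. No erythroid, epithelial or stromal marker passed between clones. These 6 genes were named after their values were seen, and their limma adjusted p ran up to 0.0141, where 5.25% of all genes passed among KO-labelled and 3.97% among Control arrays. Their part in the Atp1b1 clone difference was not tested.

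The other subunit genes did not pass in either condition. Among KO-labelled arrays the clone 2 minus clone 1 log2 difference was 0.22 for Atp1b2 (95% interval -0.15 to 0.58), -0.14 for Atp1b3 (-0.28 to 0.01) and -0.05 for Fxyd5 (-0.15 to 0.06). Among Control arrays it was 0.05 for Atp1b2 (95% interval -0.31 to 0.41), -0.02 for Atp1b3 (-0.17 to 0.12) and -0.05 for Fxyd5 (-0.15 to 0.05). Their limma adjusted p ran from 0.309 to 0.939. Thus 1 of the 4 genes passed in each condition, against 5.25% of all genes among KO-labelled arrays and 3.97% among Control arrays.

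**Figure D3:**
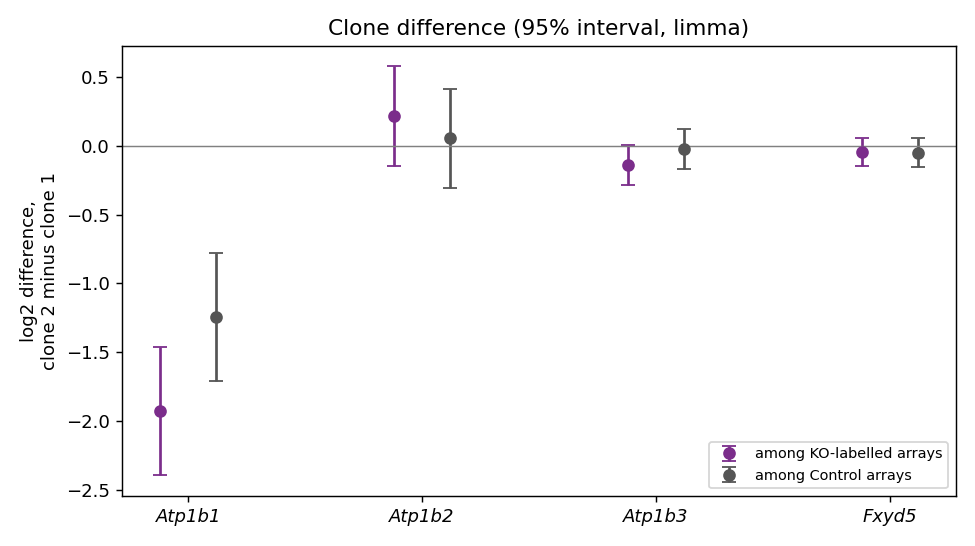
Clone 2 minus clone 1 log2 difference (y axis) of each gene (x axis), among KO-labelled and among Control arrays; points are limma estimates and bars their 95% intervals. The Atp1b1 intervals lie below 0 in both conditions, at -2.39 to -1.46 among KO-labelled and -1.71 to -0.78 among Control arrays, and the other intervals include 0.

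Whether the KO-labelled minus Control difference itself depended on the clone was tested as an interaction. For Atp1b1 the difference in clone 2 minus that in clone 1 was -0.68 ± 0.20 (SE; 95% interval -1.11 to -0.26), with an unadjusted limma p of 0.00379 and a limma adjusted p of 1, so it did not pass over all genes. The value depended on the sets used, most on those of clone 2: it was -0.27 without replicate 2 of that clone and -1.10 without replicate 1. Without replicate 1 of clone 1 it was -0.52, and without replicate 2 of clone 1 it was -0.85. Each of these fits has 1 set left in a clone, so its spread comes from the sets of the other clone and from other genes. The lone set is assumed to vary like those, so no p is given for these fits. The corresponding values were 0.16 for Atp1b2 (95% interval -0.30 to 0.62), -0.11 for Atp1b3 (-0.26 to 0.04) and 0.004 for Fxyd5 (-0.09 to 0.10), each with a limma adjusted p of 1. Of all genes, 0.0100% passed this test.

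Other genes of the pump and of ion transport were taken from 7 lists. Of their 104 genes, 92 had a probe set of their own and were analysed. Of the 92, 2 fell in the KO-labelled cultures, 0 rose and 90 did not pass (limma, adjusted over all genes), a share of 2.17% beside 0.953% of all genes. Their median log2 difference was 0.00, as it was over all genes, and the median size was 0.04 for both.

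The other subunit genes did not pass. Atp1a4, the catalytic isoform of sperm, differed by 0.06 ± 0.07 (SE, n = 4 sets). Of 7 further beta and FXYD genes 0 passed, with log2 differences from -0.09 for Fxyd1 to 0.17 for Fxyd6, a modulator best known in brain, and only Fxyd6 lay at or above the median level of all genes. Of 6 related proton-potassium pump and pump-interacting genes 0 passed, and Atp4a, the catalytic subunit of the gastric proton pump, was at 0.03 ± 0.08 (SE, n = 4 sets).

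Of 15 pump regulators and genes of beta subunit handling 0 passed, and the smallest p was that of Calr, the endoplasmic reticulum chaperone calreticulin (-0.12 ± 0.03, SE, n = 4 sets; limma adjusted p = 0.162). The list of potassium and sodium channels, which also holds the anion channel subunit gene Lrrc8a and the transport-regulating kinase genes Wnk1, Oxsr1 and Stk39, had 21 measured genes, of which 0 passed, and the smallest p was that of Kcne3, an accessory subunit of potassium channels (0.27 ± 0.08, SE, n = 4 sets; limma adjusted p = 0.239). Median differences were 0.01 for the regulators and -0.01 for the channel list.

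The 2 genes that fell were Slc8b1 and Atp8b4. Slc8b1 encodes the mitochondrial exchanger of sodium for calcium and was 1 of 21 measured genes in the list of sodium-coupled transporters and exchangers, which also holds transporters that do not carry sodium, such as Slc12a7 and Slc7a5. Its mean level was 10.24 ± 0.12 on KO-labelled and 10.45 ± 0.18 on Control arrays (SD, n = 4 each), a log2 difference of -0.22 ± 0.04 (SE, n = 4 sets; limma adjusted p = 0.0268). It was lower in 4 of 4 sets. The call ended without the set of clone 1, replicate 2 (limma adjusted p = 0.273) or of clone 2, replicate 1 (0.121), with clone as the only covariate (0.488), without the variance trend (0.321), with arrays centred (0.147) and with all probe sets tested (0.344). The Slc8b1 call also ended without any pairing.

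Atp8b4 encodes a P-type ATPase of the family that flips phospholipids across membranes and was 1 of 21 other P-type ATPase genes. Its mean level was 11.48 ± 0.26 on KO-labelled and 11.73 ± 0.12 on Control arrays (SD, n = 4 each). The log2 difference was -0.24 ± 0.04 (SE, n = 4 sets; limma adjusted p = 0.0173), and its 4 sets ran from -0.44 in clone 2, replicate 2 to -0.11 in clone 1, replicate 1. The call ended with clone as the only covariate (limma adjusted p = 0.83), without the variance trend (0.391), with arrays centred (0.0536) and with all probe sets tested (0.416). Without any pairing the Atp8b4 call ended as well.

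**Figure D4:**
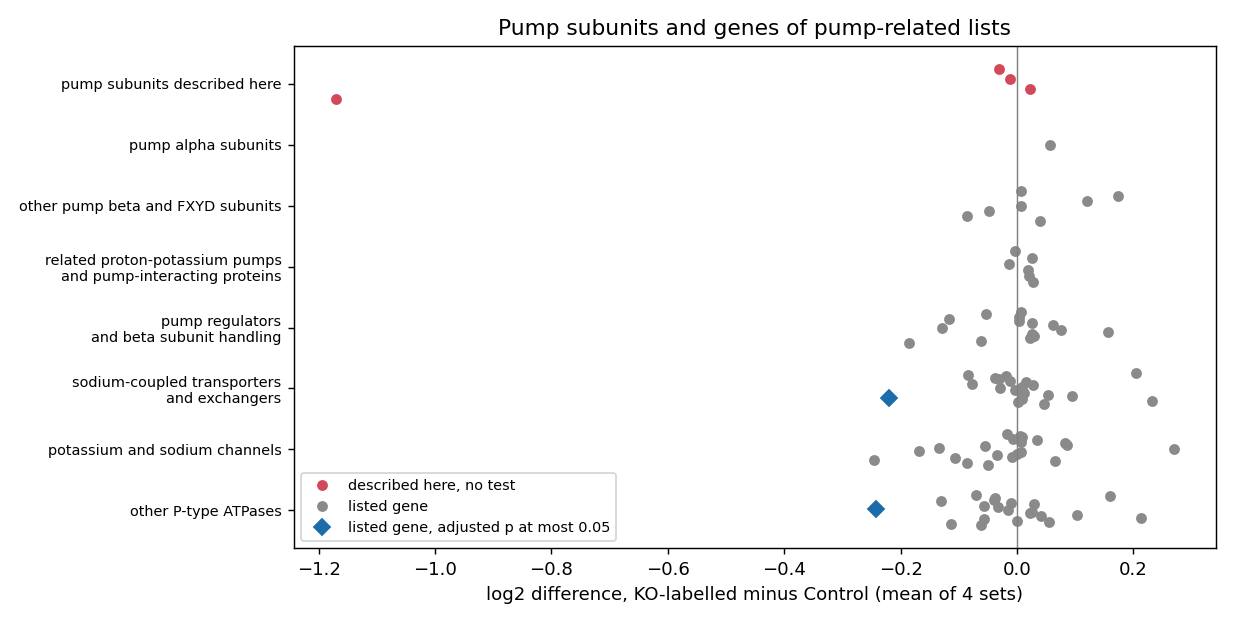
KO-labelled minus Control log2 difference (x axis, mean of 4 sets) of the 4 subunit genes, in red, and of 92 genes of the 7 pump-related lists (y axis), in grey, with blue diamonds for listed genes with an adjusted p of at most 0.05. Atp1b1 stands at -1.17, and all listed genes lie between -0.25 and 0.27.

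Between clones, 11 of the 92 listed genes passed among KO-labelled arrays, where 5.25% of all genes did, and 8 passed among Control arrays, where 3.97% of all genes did. Among them, Slc12a2, the sodium-potassium-chloride cotransporter NKCC1 of the cell surface, had a clone 2 minus clone 1 log2 difference of -2.11 among KO-labelled arrays and -2.05 among Control arrays, with limma adjusted p of 1.71e-05 and 2.33e-05. Slc28a2, a sodium-coupled nucleoside transporter, was higher in clone 2, by 1.55 among KO-labelled and 2.04 among Control arrays (limma adjusted p = 4.21e-05 and 4.48e-06). Both genes were picked after their values were seen.

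Markers of other cell types were set beside the Atp1b1 difference. The mean log2 level over 7 epithelial genes was 5.82 to 6.18 on KO-labelled and 5.84 to 5.99 on Control arrays, and 0 of them passed between conditions. The mean over 6 stromal genes was 5.75 to 6.12 on KO-labelled and 5.82 to 5.99 on Control arrays, with 0 past the threshold. The erythroid, megakaryocyte and lymphoid lists had 0 genes past the threshold among 5, 4 and 6 measured. Of the 13 myeloid progenitor markers, 1 rose and 3 fell, where 0.953% of all genes were called, with a list mean of 10.26 to 10.77 on KO-labelled and 10.29 to 10.73 on Control arrays. Named after their values were seen, these were the growth factor receptor gene Kit (-0.36), Itgam, which encodes CD11b (-0.29), the protease gene Prtn3 (-0.15) and Csf3r, which encodes a granulocyte growth factor receptor (0.27), with limma adjusted p of 0.00404 to 0.0316. The part of any marker in the Atp1b1 difference was not tested.

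Genes whose level ran most like each subunit gene over the 8 arrays were found by Pearson correlation among the other genes at or above the median level. The 8 arrays share clones and sets, so these values describe the arrays and carry no p. For Atp1b1 they were Rnpep, an aminopeptidase (r = 0.997), Tm7sf3 (0.991) and Zfand2a (0.985). Rnpep averaged 11.65 on KO-labelled and 11.80 on Control arrays, a difference of -0.15, so the pattern was alike and the size was not. For Atp1b3 they were Otulinl (0.990), Tex30 (0.985) and Ddx20 (0.982), and for Fxyd5 Mcpt8, a basophil protease (0.956), Trp53inp2 (0.950) and Anxa2 (0.943). For Atp1b2 they were the keratin gene Krt87 (0.989) and the transcription factor genes Spdef (0.989) and Barx1 (0.987). These 3 had negative set differences for replicate 1 and positive ones for replicate 2 in both clones, as Atp1b2 had. They were picked for their likeness to Atp1b2 on the same arrays, so the shared signs are no separate evidence for that pattern.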

How the data were processed

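Total RNA of 8 cultures was hybridised to 8 Affymetrix arrays after whole-transcript cDNA labelling, per the labels' protocols. The deposited values are log2 probe-set levels, and the submitters' processing notes name RMA, which corrects background, normalizes by quantiles and summarises probes. The RMA version and chip definition are not stated in the sources used, and the log2 base was read from the values (2.60 to 13.77). The number of arrays limits the precision.

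Of 35556 probe sets, the platform annotation gave 21789 1 symbol and 1621 several, and 12146 were not listed. The brightest single-symbol probe set per gene left 19938 genes. Promoters came from a RefSeq table.

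Fits used limma 3.58.1 in R 4.3.3 with a variance trend, two-sided tests and p-values adjusted by Benjamini-Hochberg across the whole gene table (threshold 0.05), and were tested on simulated data. The condition and interaction fits had the set as a block. The series' description gives 4 sets without naming them, and cultures were matched by clone and replicate number from the titles, a match on which the condition calls depend. Within sets, deviations from condition means, which hold the clone difference, correlated at 0.724 to 0.817. With clone means removed the values were 0.436 in clone 1 and 0.249 in clone 2. The clone comparisons used clone by condition.

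The genes and lists were chosen with earlier results of these data known. Named genes are the subunits, Runx1 and Cbfb, per list other than marker lists up to 4 genes past the threshold by smallest p or otherwise the 1 with the smallest p, some other pump subunit genes, and the 3 most alike per subunit. Other genes are marked as named after their values were seen or only as members of a list. Alternatives varied pairing, variance model, array weights, normalization, dim genes, probe sets and sets used.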

Additional observations from a re-analysis of the deposited data

Results flagged for a closer look

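Fxyd5 had 1 culture apart from the others in a condition. Among KO-labelled cultures clone 2, replicate 1 was the lowest, at 12.49, and the other 3 lay between 12.56 and 12.58, which did not pass Dixon's test. Among Control cultures clone 2, replicate 1 stood at 12.52 and the other 3 between 12.60 and 12.61, and its gap to the nearest culture was 0.842 of the whole range, past the 95% critical value of that test for 4 samples. Chance gives such a gap in about 1 of 20 groups, and 12 groups were examined.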

How the results depend on the processing

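The KO-labelled minus Control mean kept its sign under all 7 alternatives for Atp1b1 (-1.34 to -0.92) and Fxyd5, which stood at -0.0540 with arrays centred on their medians. Atp1b2 (-0.08 to 0.11) and Atp1b3 (-0.04 to 0.03) took both signs, each within 1 SD of its mean. The limma count of 190 genes was 23 (728 at an unadjusted p under 0.05) and 0 (317) with no replicate block, with and without clone as a covariate, 13 without the variance trend, 388 with array weights, 0 with all probe sets tested (1834) and 98 to 418 without 1 set. The pump-related count of 2 was 0 with no replicate block with clone as covariate (8 unadjusted) or without (3), without the variance trend (10), with centring (11) and with all probe sets (13), and 1 to 3 without 1 set, being 1 without clone 1, replicate 2 or clone 2, replicate 1.

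The clone difference among Control arrays called 792 genes, 1599 with array weights, 477 with all probe sets and 385 to 588 without 1 set (385 without clone 1, replicate 1, 469 without clone 1, replicate 2 and 475 without clone 2, replicate 2). Among KO-labelled arrays it called 1047, 567 with array weights, 599 with all probe sets and 382 to 1542 without 1 set (382 without clone 1, replicate 1 and 548 without clone 2, replicate 2). A random replicate block changed neither call of Atp1b1 (limma adjusted p = 0.000248 among KO-labelled and 0.00558 among Control arrays). Atp1b1 among Control arrays did not pass with all probe sets (-1.24, adjusted p = 0.0732), and without 1 set ran from -1.28 to -1.20. The interaction called 2 genes, 0 with no replicate block (178 unadjusted), without the trend (304) or with all probe sets (776), 4 with array weights, 12 with centring, 1 with dim genes left out and 5 to 224 without 1 set; Atp1b1 ran from -1.10 to -0.27.

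Values near 0 changed sign without passing. The Atp1b2 interaction was -0.00983 without clone 1, replicate 1 and -0.0741 without clone 2, replicate 2 (up to 0.398 without 1 set). The Atp1b3 clone difference among Control arrays ran from -0.0635 to 0.0142 without 1 set, 0.0142 being without clone 2, replicate 1. The Fxyd5 interaction was -0.0170 with quantiles normalized again, -0.0109 with centring and -0.00345 to 0.0113 without 1 set, below 0 without clone 1, replicate 1 and without clone 2, replicate 1. The Atp4a difference ran from -0.0158, without clone 2, replicate 2, to 0.0793 without 1 set. The cause of these shifts was not tested.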
